A study of Mus musculus with 6 samples.

Results

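The genes described here encode subunits of the Polycomb repressive complexes, and they were set by a list of 10 array identifiers: Ezh2, Ezh1, Eed, Suz12, Jarid2 and Mtf2 of Polycomb repressive complex 2 (PRC2), and Rnf2, Bmi1, Cbx7 and Phc1 of Polycomb repressive complex 1 (PRC1). All 10 identifiers had a row among the 17144 genes on the arrays. RNA was measured on Affymetrix mouse arrays in wild type embryonic stem cells (ESCs) of the V6.5 line, a blastocyst derived line of 129SvJae/C57B6 F1 background, and in neural precursor cells (NPCs) derived from these cells in culture. ESCs were kept in serum with LIF, and NPCs were expanded in N3 medium with bFGF and EGF, so that cell type and culture medium cannot be told apart. There were 3 biological replicates of each cell type with 1 array each, and all of them came from the same ESC line. The values are robust multi-array average (RMA) values, in which each gene has a single number per array on a log2 scale, so that a difference of 1 is a change of 2-fold in signal. The comparison asks how the transcripts of the Polycomb machinery differed between a pluripotent and a neural stem cell.

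Polycomb proteins keep developmental genes silent and act through modified histones. PRC2 places methyl groups on a lysine of histone H3 (H3K27) through EZH2 or its relative EZH1, which are active only when bound to EED and SUZ12, while JARID2 and MTF2 are accessory subunits that guide the complex to CpG-rich DNA. PRC1 places ubiquitin on histone H2A through RNF2 (RING1B) together with a PCGF protein such as BMI1, and its canonical form carries a CBX protein that reads methylated H3K27 and a PHC protein that clusters the complexes. In ESCs these complexes hold many lineage genes in a repressed state that can be reversed, and in neural stem cells BMI1 is known for supporting self-renewal by repressing the Cdkn2a locus.

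The Polycomb subunits differed widely in the size of their change. Of the 10 genes, 9 were lower in NPCs and Bmi1 alone was higher. Among the 9, 6 fell by more than 1.5-fold, and Ezh2, Ezh1 and Rnf2 fell by less. Jarid2, Mtf2, Cbx7 and Phc1 fell by between 6.25-fold and 10.9-fold, Eed and Suz12 by 2.40-fold and 2.39-fold, and Bmi1 rose by 20.6-fold. Each gene was tested with limma over all genes and called when the Benjamini-Hochberg adjusted p was under 0.05 and the means differed by more than 1.5-fold. With these thresholds 34.1% of all genes were called, 18.7% as lower and 15.4% as higher in NPCs. This is the background for the 6 genes called lower and the 1 gene called higher among the 10. The adjusted p alone was under 0.05 for all 10 genes, against 49.0% of all genes. The median difference of the 10 genes was -1.26 on the log2 scale, and that of all genes was -0.04. In bulk RNA, fewer cells that express a gene and less RNA per cell cannot be told apart.

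**Figure D1:**
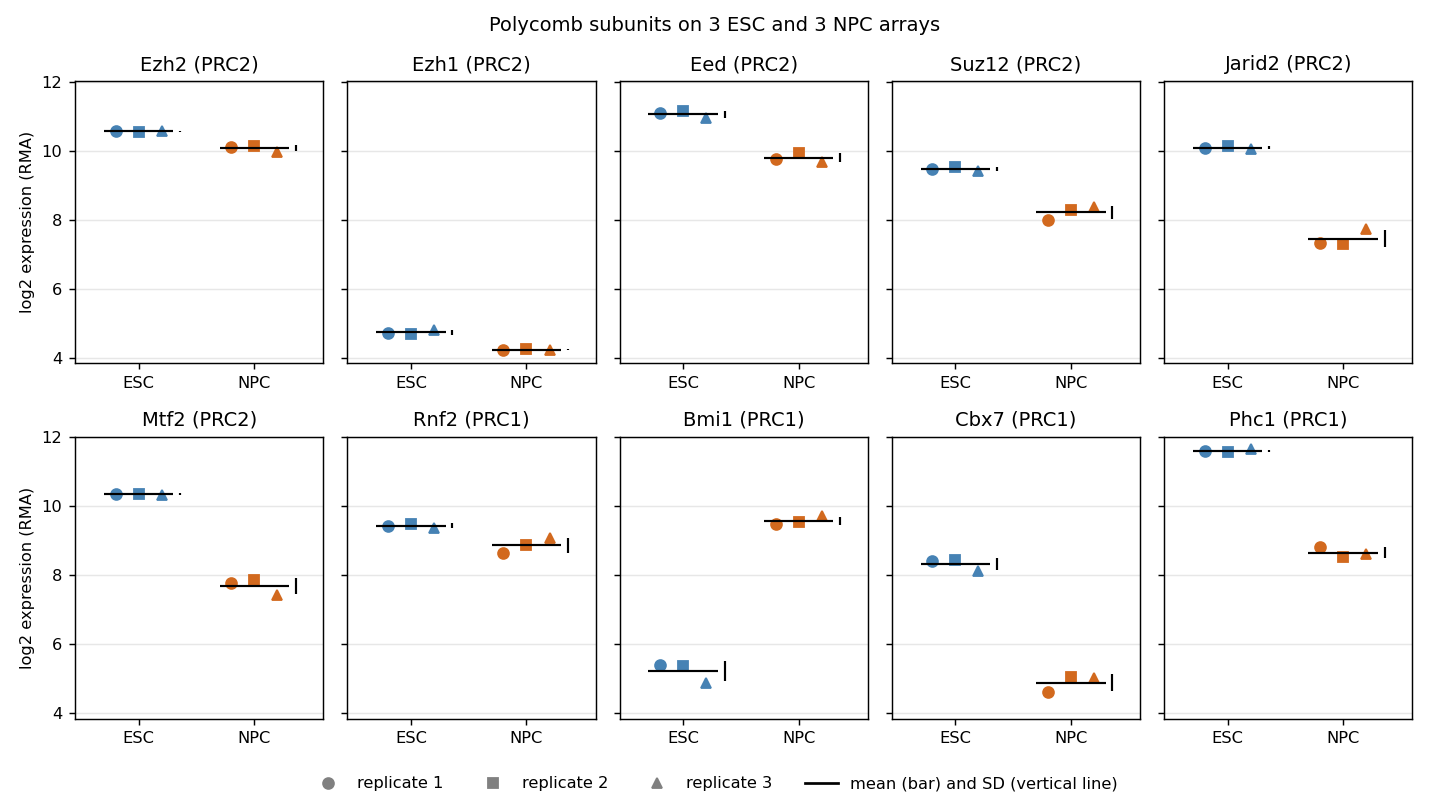
Each panel gives the log2 expression value (RMA) of a Polycomb subunit on the 3 ESC arrays (blue) and the 3 NPC arrays (orange), with a horizontal bar at the mean and a vertical line for the SD. Bmi1 is the only gene whose NPC points lie above its ESC points, and the shift is smallest in Ezh2, Ezh1 and Rnf2.

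The labels were checked against marker genes. Of 8 ESC markers only Pou5f1, the pluripotency factor OCT4, could be named, so that the check rests on this gene. Pou5f1 stood at 12.44 ± 0.02 (SD, n = 3) in ESCs and at 3.70 ± 0.11 (SD, n = 3) in NPCs. Of 7 neural precursor markers, Nes, Fabp7, Olig2 and Vim could be named, from a list of genes that rise in NPCs, so that their rise was set by the naming and checks no label. Across genes, NPC replicates 1 and 2 had a correlation of 0.997, and NPC replicate 3 had one of 0.978 or 0.979 with either. Markers of other cells were named in part. The neuronal gene Dcx read 4.86, 5.06 and 3.76 on NPC arrays 1, 2 and 3 against 3.33 to 3.68 in ESCs, and the astrocyte gene S100b read 6.32, 6.13 and 7.02 against 3.95 to 4.00. They are the 1 named gene of 6 neuronal markers and the 1 named gene of 4 astrocyte markers. Names were at hand nearly only for genes that rise in NPCs, so that these rises do not show that other cells were present. None of the 4 oligodendrocyte or 7 feeder fibroblast markers could be named. The part of other cell types in the Polycomb differences was not tested.

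The catalytic subunits of PRC2 differed little between the cell types. Ezh2 (ENSMUSG00000029687_at), which encodes the main H3K27 methyltransferase of dividing cells, read 10.57, 10.55 and 10.57 on the ESC arrays and 10.11, 10.14 and 9.97 on the NPC arrays. Every NPC value was below every ESC value, and the gap between the groups was 0.41. The means of 10.56 ± 0.01 (SD, n = 3) and 10.07 ± 0.09 (SD, n = 3) differ by -0.49 (standard error, SE, 0.081, limma, adjusted p = 0.00184), or 1.40-fold, which is under the 1.5-fold threshold. The signal of Ezh2 stood at the 97.0 percentile of genes in ESCs and the 95.5 percentile in NPCs. The percentile counts how many of the 17144 genes did not exceed the gene on an array, averaged over the 3 arrays, and as a rank of signal it depends on the probes of each gene as well as on its transcript.

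Ezh1 (ENSMUSG00000006920_at), the relative of Ezh2 that is best known from cells that have stopped dividing, read 4.73, 4.68 and 4.82 in ESCs and 4.23, 4.26 and 4.23 in NPCs. The groups did not overlap, and the signal stood at the 36.6 percentile in ESCs and the 31.0 percentile in NPCs. Detection calls were not used, so such values do not set whether the transcript was present. The difference was -0.50 (SE 0.077, limma, adjusted p = 0.00131), or 1.41-fold, and was not called. The catalytic genes could have moved in opposite directions, as one replaces the other in the same complex, and this was compared directly. The difference of Ezh1 and Ezh2 was taken on each array, and its mean in NPCs differed from its mean in ESCs by -0.009 (p = 0.8, two-sided exact permutation test, where 3 arrays against 3 cannot go below 0.1). Within a cell type that per-array difference spread over 0.12 in ESCs and 0.15 in NPCs, and the comparison is limited by the low Ezh1 signal, which may lie near background, and by the number of arrays, so it does not show that the genes moved alike.

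Eed and Suz12, of the non-catalytic core of PRC2, fell by more than Ezh2 and Ezh1. This contrast was not tested, and the Ezh1 signal may lie near background. Eed (ENSMUSG00000030619_at), whose product binds methylated H3K27 and stimulates the enzyme, read 11.09, 11.15 and 10.95 in ESCs and 9.77, 9.94 and 9.68 in NPCs. The cell types were separated by a gap of 1.00, and the spread within either of them was at most 0.26. On the log2 scale Eed fell by 1.26 (SE 0.102, limma, adjusted p = 4.93e-05), so that its NPC signal was 41.7% of that in ESCs. Suz12 (ENSMUSG00000017548_at), the scaffold on which the enzyme and the accessory subunits assemble, read 9.47, 9.54 and 9.41 in ESCs and 8.00, 8.29 and 8.37 in NPCs. Its lowest ESC value was 1.04 above its highest NPC value. Suz12 fell by 1.25 (SE 0.113, limma, adjusted p = 8.61e-05), which left 41.9% of the ESC signal. A fall at least as large was found at 8.68% of all genes for Eed and at 8.77% for Suz12. Their signals on the NPC arrays stood at the 94.2 percentile for Eed and the 82.0 percentile for Suz12.

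Among the 6 PRC2 genes, the accessory genes Jarid2 and Mtf2 showed the largest falls. Other accessory genes of PRC2 could not be named. Jarid2 (ENSMUSG00000038518_at), a Jumonji family protein without demethylase activity that recruits PRC2 in ESCs, read 10.09, 10.13 and 10.06 in ESCs and 7.32, 7.29 and 7.73 in NPCs. NPC replicate 3 was the highest NPC array for this gene, 0.43 above the mean of the other NPC arrays, and still 2.32 below the lowest ESC array. Jarid2 fell by 2.64 (SE 0.130, limma, adjusted p = 4.54e-06), or 6.25-fold. Mtf2 (ENSMUSG00000029267_at), the Polycomb-like protein PCL2 that binds unmethylated CpG-rich DNA, read 10.36, 10.37 and 10.32 in ESCs and 7.78, 7.86 and 7.42 in NPCs. Here NPC replicate 3 was the lowest array, 0.39 below the mean of the other NPC arrays. Mtf2 fell by 2.67 (SE 0.123, limma, adjusted p = 3.42e-06), or 6.34-fold. The NPC signal was 16.0% of the ESC signal for Jarid2 and 15.8% for Mtf2, and the genes moved from the 95.3 and 96.3 percentiles to the 72.6 and 75.7 percentiles. The median difference of these 2 genes was -2.65, against -0.88 for the 4 catalytic and core genes of PRC2. Whether the accessory genes fell by more than the others was not tested.

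**Figure D2:**
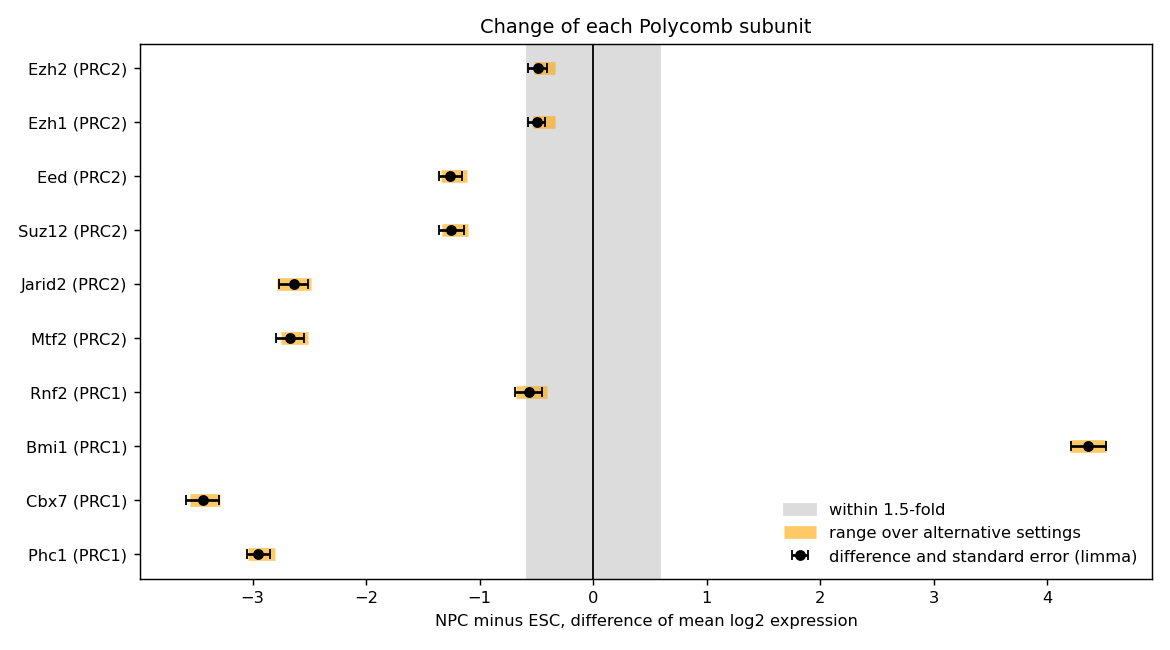
Points give the difference of mean log2 expression, NPC minus ESC, for each subunit with its standard error from limma. Orange bands give the lowest and highest value over 15 alternative settings, and the grey area lies within 1.5-fold. Only quantile normalization, median centring and leaving out an array change the difference itself. Ezh2, Ezh1 and Rnf2 lie inside the grey area at -0.49, -0.50 and -0.57, and the other 7 genes lie outside it.

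Of the 4 PRC1 genes, Rnf2 differed least, while Bmi1 moved far upward and Cbx7 and Phc1 far downward. Each stands for 1 role in the complex, and most other PRC1 genes could not be named. Rnf2 (ENSMUSG00000026484_at), which encodes a ubiquitin ligase, read 9.44, 9.50 and 9.36 in ESCs and 8.65, 8.87 and 9.08 in NPCs. The groups did not overlap, but with a gap of 0.28 they were closer than for any other gene of the 10. The difference of -0.57 (SE 0.122, limma, adjusted p = 0.00661) is 1.48-fold, just under the threshold, and the gene was not called. This depended on single arrays: without ESC replicate 3 the difference was -0.60 and without NPC replicate 3 it was -0.68, and Rnf2 was called in both cases. Without any other single array it was not called, and the difference was smallest without NPC replicate 1, at -0.46.

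Bmi1 (ENSMUSG00000026739_at), also called Pcgf4, encodes a PCGF partner that shapes RNF2 activity and was the only gene of the 10 that rose. It read 5.41, 5.37 and 4.89 on the ESC arrays and 9.49, 9.56 and 9.71 on the NPC arrays. The lowest NPC value was 4.09 above the highest ESC value, and ESC replicate 3 was the lowest of all 6 arrays. The means of 5.22 ± 0.29 (SD, n = 3) and 9.59 ± 0.11 (SD, n = 3) differ by 4.36 (SE 0.153, limma, adjusted p = 9.06e-07). Bmi1 went from the 43.1 percentile to the 93.1 percentile in NPCs. How far its ESC signal lay above background is not known, as detection calls were not used. Only 0.356% of all genes rose by as much.

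Cbx7 (ENSMUSG00000053411_at), a chromodomain protein that ties canonical PRC1 to methylated H3K27 in ESCs, had the largest fall of the 10 genes. It read 8.42, 8.46 and 8.14 in ESCs and 4.62, 5.05 and 5.02 in NPCs. All ESC arrays were at least 3.09 above all NPC arrays. Cbx7 fell by 3.44 (SE 0.147, limma, adjusted p = 2.29e-06), which left 9.19% of the ESC signal, and the gene went from the 82.6 percentile to the 40.9 percentile. As for Bmi1 in ESCs, how far this NPC signal lay above background is not known. Phc1 (ENSMUSG00000040669_at), a polyhomeotic protein whose SAM domain polymerizes, read 11.60, 11.57 and 11.65 in ESCs and 8.83, 8.53 and 8.61 in NPCs. It stood at the 99.1 percentile in ESCs and at the 86.4 percentile in NPCs. Phc1 fell by 2.95 (SE 0.10, limma, adjusted p = 7.85e-07), which left 12.9% of the ESC signal. A fall as large was found at 1.63% of all genes for Cbx7 and at 2.19% for Phc1.

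**Figure D3:**
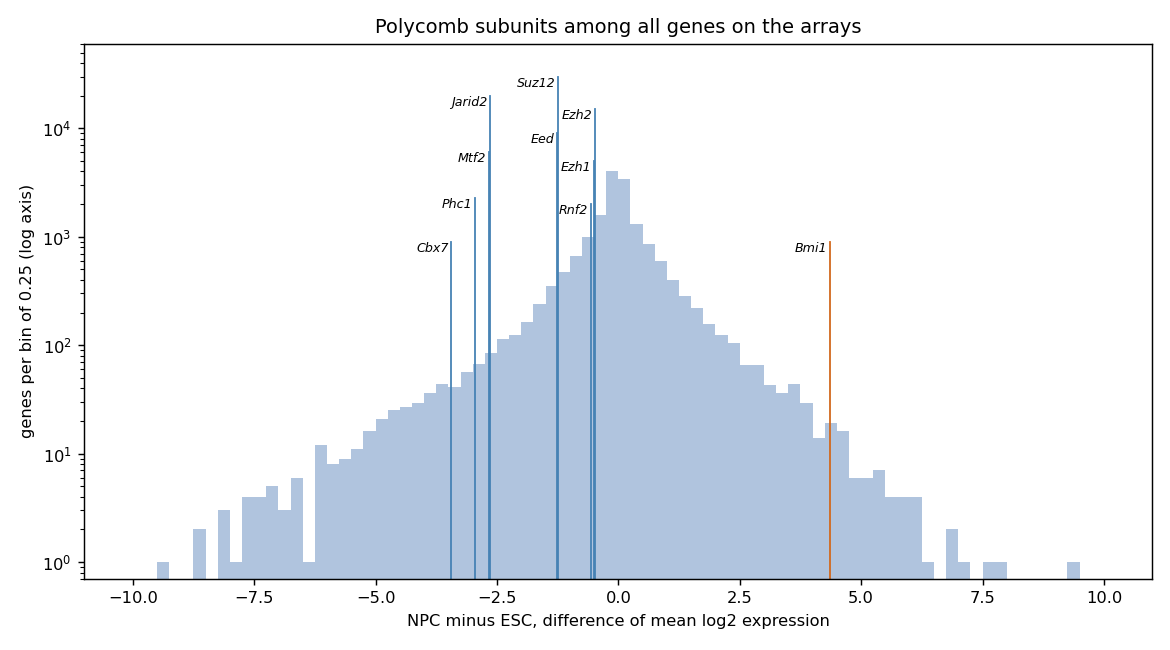
The histogram counts all 17144 genes by their difference of mean log2 expression, NPC minus ESC, in bins of 0.25 on a log count axis, and vertical lines mark the 10 Polycomb subunits (blue for lower and orange for higher in NPCs). Bmi1 at 4.36 stands far to the right and Cbx7 at -3.44 farthest to the left, while Ezh2, Ezh1 and Rnf2 lie on the left flank of the peak.

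The sequences at the start sites of the genes that moved farthest in either direction, Bmi1 and Cbx7, are shown together with that of Ezh2, which differed little. Each is a RefSeq window of 300 bases (GRCm38.p6), from 250 bases before a transcription start to 50 after it, written 5′ to 3′ on the strand of the gene. All 10 genes had a window and Jarid2 and Mtf2 had a pair, 12 in all. The Bmi1 window is chr2:18676768-18677067 on the plus strand, the Cbx7 window chr15:79932597-79932896 on the minus strand and the Ezh2 window chr6:47594981-47595280 on the minus strand. Capitals mark matches, on either strand, to the letters CACGTG (the E-box read by MYC and MAX), TTTGGCGC or TTTCGCGC (E2F sites), CATTGTT or CTTTGTT (SOX sites), ATGCAAAT (the octamer of POU factors) and CCAAT (the CCAAT box), and no match overlaps another in these windows.
Bmi1: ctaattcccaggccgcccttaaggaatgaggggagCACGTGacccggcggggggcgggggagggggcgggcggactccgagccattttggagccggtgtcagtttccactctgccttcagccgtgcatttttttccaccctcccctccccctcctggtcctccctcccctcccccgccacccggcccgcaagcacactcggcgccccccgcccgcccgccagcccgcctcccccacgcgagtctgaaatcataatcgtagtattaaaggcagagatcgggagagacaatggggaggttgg
Cbx7: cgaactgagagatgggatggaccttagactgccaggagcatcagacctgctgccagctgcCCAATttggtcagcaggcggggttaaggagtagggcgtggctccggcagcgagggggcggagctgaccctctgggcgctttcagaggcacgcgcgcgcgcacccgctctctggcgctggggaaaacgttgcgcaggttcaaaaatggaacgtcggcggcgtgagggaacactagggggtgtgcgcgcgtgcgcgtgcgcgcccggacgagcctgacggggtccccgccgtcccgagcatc
Ezh2: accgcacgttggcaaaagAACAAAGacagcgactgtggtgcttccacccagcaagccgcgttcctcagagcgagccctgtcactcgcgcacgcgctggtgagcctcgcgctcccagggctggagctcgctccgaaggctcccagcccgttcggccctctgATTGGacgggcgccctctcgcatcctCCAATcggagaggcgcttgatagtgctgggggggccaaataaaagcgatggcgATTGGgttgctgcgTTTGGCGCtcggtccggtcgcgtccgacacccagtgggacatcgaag

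The match in the Bmi1 window is an E-box that begins at base 36, counted from the 5′ end, and no other window of the 10 genes held these letters, which occur in 7.15% of all 32851 promoter windows. The Ezh2 window held the E2F letters at base 254, which occur in 0.813% of all windows, and SOX letters at base 19. SOX letters were also found in a window of Mtf2, at base 160, and occur in 9.36% of all windows. The octamer was in none of the windows of the 10 genes and in 1.74% of all windows. CCAAT letters were in 7 of the 12 windows, from 6 genes (Ezh2, Eed, Suz12, Jarid2, Mtf2 and Cbx7), and in 37.4% of all windows. The windows of the 10 genes held between 2 and 41 CpG dinucleotides with a median of 23.5, where the median of all windows is 7. The lowest count, 2, was that of the second Mtf2 window, and the Phc1 window held 9. A match of letters is a description of the sequence, and binding was not measured on these arrays.

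The spread between replicates was compared with that of all genes. The median SD of the 10 genes was 0.068 in ESCs and 0.176 in NPCs, against 0.0918 and 0.138 over all genes. No NPC and ESC values overlapped at any of the 10 genes, 9 lower and 1 higher in NPCs. The same was true of 58.7% of all 17144 genes, with 5587 genes lower and 4480 higher in NPCs. NPC replicate 3, which stood apart at many genes, was within 0.5 of the mean of the other NPC arrays at all 10. Its median absolute deviation from that mean was 0.183 at the 10 genes and 0.173 at all genes. Over all genes it deviated by more than 0.5 at 15.0% and by more than 1 at 4.00%. Its deviation was positive at 5 of the 10 genes and negative at the other 5, with Jarid2 at 0.43 and Mtf2 at -0.39 as the farthest. The SD of a gene within ESCs was at most 0.29, in Bmi1, and within NPCs at most 0.25, in Jarid2.

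Other genes of the pathway could be described only in part. A list of 36 further genes covered partners of PRC2, the remaining PRC1 subunits, enzymes that oppose Polycomb and repressed targets, and 7 of them could be named. Their names came from a list sorted by the rise in NPCs, so that all 7 were called higher by that choice. They say nothing of the balance of directions in the pathway or of the relatives without a name, and their values are given as a description. Phc2, a relative of Phc1, read 7.57, 7.64 and 7.63 in ESCs and 10.12, 9.99 and 10.03 in NPCs. The arrays of each cell type were nearly level for this gene, and its difference was 2.43 (SE 0.078). Phc3, the remaining relative, rose by 0.92 (SE 0.147), and by 0.76 without NPC replicate 3.

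Cbx8, a chromobox gene, read 4.49, 4.55 and 4.66 in ESCs and 5.39, 5.49 and 5.63 in NPCs. It rose by 0.94 (SE 0.095), from 4.57 ± 0.09 (SD, n = 3) to 5.50 ± 0.12 (SD, n = 3). Its product can take the place of CBX7 in PRC1, but it was named from rising genes, so that no exchange of chromobox genes can be read from it. Yaf2, which with its relative RYBP marks the non-canonical forms of PRC1 that lack a CBX protein, read 7.37, 7.49 and 7.11 in ESCs and 10.61, 10.63 and 9.65 in NPCs, a rise of 2.97 (SE 0.267). Hdac2, a histone deacetylase that can associate with PRC2, rose by 0.94, and Asxl3, a cofactor of the H2A deubiquitinase BAP1, rose by 1.00 with its ESC signal at the 17.1 percentile.

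Cdkn2a, which encodes the cell cycle inhibitors p16 and ARF and is the best known target of repression by BMI1, was higher in NPCs together with Bmi1. It read 4.81 on each of the ESC arrays and 9.15, 8.93 and 6.31 on the NPC arrays. NPC replicate 3 differed from the mean of NPC replicates 1 and 2 by -2.72, though it was still above all ESC arrays. The difference was 3.32 (SE 0.692), and 4.23 without NPC replicate 3. Bmi1 itself varied by 0.22 among the NPC arrays, and was highest in replicate 3 at 9.71. With 3 NPC arrays a relation between the genes cannot be tested.

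**Figure D4:**
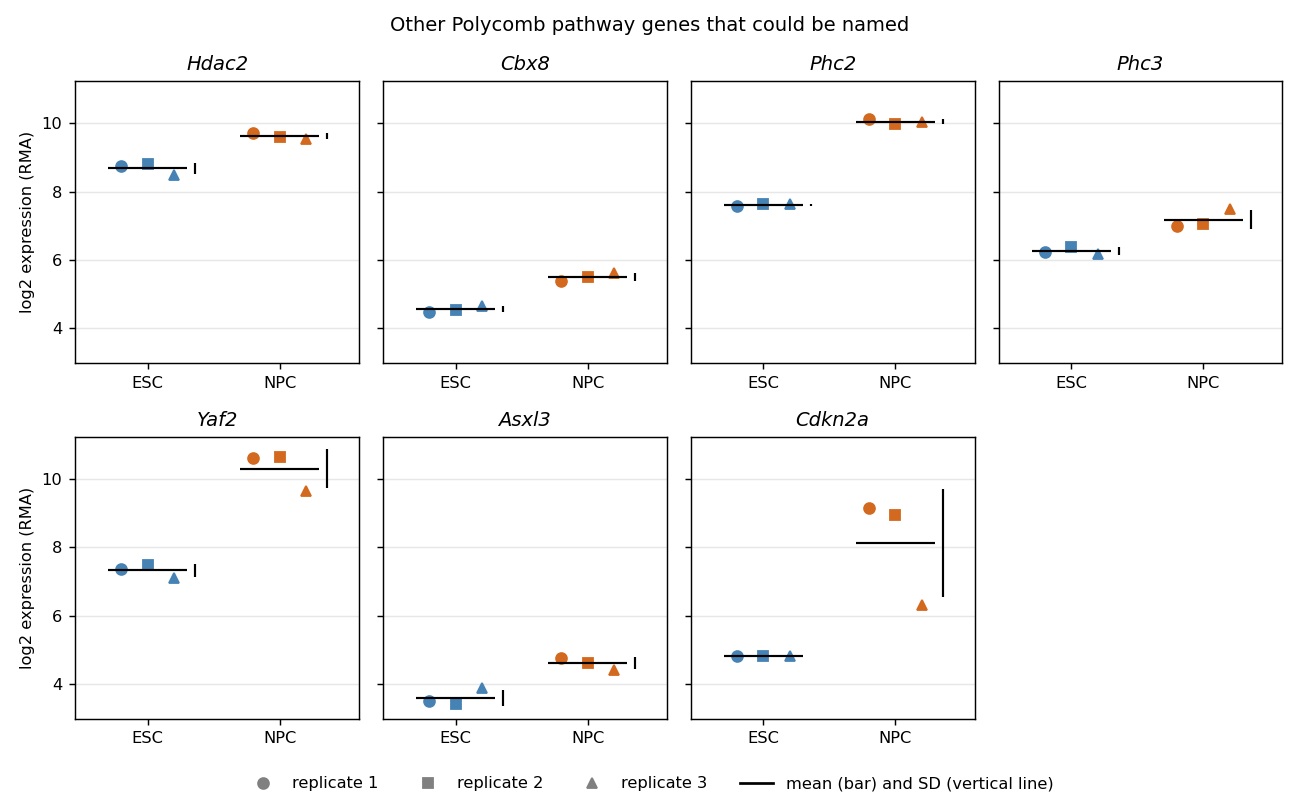
Each panel gives the log2 expression value (RMA) of a further gene of the Polycomb pathway on the 3 ESC arrays (blue) and the 3 NPC arrays (orange), with a bar at the mean and a vertical line for the SD. All 7 genes were named from a list of rising genes and lie higher in NPCs, and in Cdkn2a and Yaf2 NPC replicate 3 (triangle) lies below the other NPC arrays.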

How the data were processed

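The authors hybridized RNA of 3 ESC and 3 NPC samples to Affymetrix mouse arrays and deposited log2 values made by RMA, with background correction, quantile normalization between arrays and 1 summary per Ensembl gene from a remapped probe annotation (BrainCDF). For the version of that annotation and its build, the sources used here give nothing. Of 17208 rows, 64 control probe sets were left out, and no other filter was applied. The median of the deposited values was 5.75 to 5.76 on the ESC arrays and 5.59 to 5.61 on the NPC arrays. The cell types were therefore not at a fully equal level, and median centring is among the alternatives given below. Arrays carry no read depth, and their number limits the precision. Groups and replicate numbers came from the sample labels.

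R 4.3.3 and limma 3.58.1 (lmFit, then eBayes, without covariates) gave the differences over all 17144 genes, and p-values were adjusted by the method of Benjamini and Hochberg. The methods of the study name a moderated Welch test, which was rebuilt as an alternative. Figures were drawn with Python 3.11.15 and matplotlib 3.10.9. The members and lists were chosen with earlier results of these data known. All 10 members are named in the text, with the genes of the wider list and markers that could be named. So are the 3 genes nearest in pattern to the member with the largest rise. For the member with the largest fall only the closest genes are given, by identifier. The identifiers of the members were paired with symbols by the list that defines them, and for Bmi1 a sheet of the study gives the same name. Other names were taken from such sheets where all 6 values were equal within 0.0001, which held for 2004 genes, nearly all of them rising. Promoter windows came from RefSeq (GRCm38.p6) by symbol, for 10 of 10 members. Besides the genes of the wider list that have no name, 1 gene planned for it is not reported here.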

Additional observations from a re-analysis of the deposited data

How the results depend on the processing

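The 15 alternatives included the moderated Welch test, mean-variance trend, robust variances, replicate block, quantile normalization and median centring. The others were a filter at the 25th percentile, no fold threshold, a 2-fold threshold, and each array left out. Only quantile normalization and median centring could have reversed a direction, and under both all 10 Polycomb genes kept theirs. The tests, block, filter and thresholds leave the difference of means unchanged. Leaving out an array cannot reverse it at these genes, as their groups do not overlap. Of 150 values, 145 kept their call. The other 5 were Ezh2, Ezh1 and Rnf2, called once no fold threshold was set, which made 10 genes called, and Rnf2 without ESC replicate 3 or NPC replicate 3. Between 7 and 8 of the 10 genes were called with each array left out. Over all genes, 5851 were called, 3592 with a 2-fold threshold, and 5637 to 6199 with each array left out. Median centring moved the median difference of all genes from -0.036 to 0.119 and changed the calls over all genes from 2638 higher and 3213 lower to 3302 and 2642, and it gave the smallest falls, between -0.34 for Ezh2 and Ezh1 and -3.29 for Cbx7. Quantile normalization gave 2974 higher and 2900 lower. The relative shift of Ezh1 and Ezh2 lay between -0.057 and 0.023 with each array left out and was 0.069 after quantile normalization. NPC replicate 3 deviated by more than 1 at 686 genes and by more than 0.5 at 2569. The deviations of same-numbered arrays correlated at 0.0264, 0.011 and -0.00645, and the labels tie no pair of arrays. A fit with the replicate block called 7 of the 10 genes and 5867 of all genes. Dcx was not called when any array other than NPC replicate 3 was left out, and Hdac2, Cbx8 and Phc3 were not called with a 2-fold threshold. The array signal over background was not analysed here.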

Other observations

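The genes nearest to Bmi1 in pattern were taken as those with the smallest root mean square difference over the 6 arrays, after the mean of each gene was subtracted. They were Igfbp3 at 0.135, Mageh1 at 0.163 and Serpine2 at 0.186 on the log2 scale, and their differences between NPCs and ESCs were 4.55, 4.14 and 4.35. Igfbp3 encodes a binding protein of insulin-like growth factors and Serpine2 a secreted protease inhibitor. The genes nearest to Cbx7 had no name at hand. The closest were ENSMUSG00000050052 at 0.0781 and ENSMUSG00000020227 at 0.101, with differences of -3.49 and -3.47. The 6 arrays fall into 2 cell types, so that likeness here reflects mainly a difference of similar size.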
